A study of Mus musculus with 6 samples.

Results

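The genes described here are 7 that make or bind the poly(A) tail of mRNA in mouse oocytes, chosen by gene symbol from the 60193 genes of the deposited table. They comprise the poly(A) polymerases Papola, Papolg and Tent2 and the poly(A)-binding proteins (PABPs) Pabpn1, Pabpc1, Pabpc1l and Pabpc4. The choice used no threshold on a measured value but was made with earlier results of these data known, and each symbol matched 1 Ensembl gene. RNA-seq compared metaphase II (MII) oocytes matured in vitro (IVM) with those matured in vivo (IVO), asking how the maturation route alters the transcriptome at advanced maternal age. All 6 samples came from ICR mice aged 42 to 45 weeks, 3 samples per group, and each sample pooled 20 oocytes from 3 mice. Donors of both groups had received PMSG, a gonadotropin from pregnant mares, at 5 IU. For IVM, immature oocytes were taken from antral follicles after 46 h, stripped of their cumulus cells and cultured in M16 medium for 12 h. For IVO, 5 IU of human chorionic gonadotropin (hCG) was given at 46 h, and ovulated oocytes were collected from the oviduct 14 h later and freed of cumulus cells with hyaluronidase. The groups thus differed in hCG exposure and in the presence of cumulus cells as well as in the place of maturation, and these cannot be told apart.

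A poly(A) tail is added to most mRNAs in the nucleus and protects them from decay and promotes their translation while PABPs cover it. Growing oocytes store many mRNAs with shortened tails, and during meiotic maturation, when transcription is silent, selected tails are lengthened again in the cytoplasm while others are removed. The level of an mRNA in an MII oocyte therefore reflects what was stored and what was degraded. The cDNA of these samples was primed on poly(A), so the measured values reflect tailed RNA and can also depend on the tail. Tail length was not measured, and its part in the differences was not tested.

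The values are FPKM, fragment counts per unit of length and depth, the abundance of a gene corrected for its length and for library size, so that levels of different genes can be set side by side. From the smallest steps between low values, 16500000 to 19400000 fragments per IVM sample and 17900000 to 18100000 per IVO sample were inferred. The inferred fragment length was 200 to 220 bases in IVM and 250 to 260 bases in IVO, without overlap, and removing the trend with gene length took the called genes from 3480 to 2068 and the log2FC of Pabpc1l from -1.94 to -1.74. The part of fragment length in the differences was not tested. Summed FPKM lay between 1826738 and 2111776 for IVM and between 1560813 and 1643682 for IVO, and the median over the tested genes was 9.63 to 10.4 and 6.66 to 7.13 FPKM, respectively. All 10 oocyte markers had a mean of at least 1 FPKM, with sums of 21333 to 27825 in IVM and 21085 to 23299 in IVO, but 9 of the 10 had a lower mean in IVO. Zp3 was at 326 to 892 FPKM in IVM and 58.5 to 65.1 in IVO, and Oosp1, the most abundant, at 10146 to 14047 and 11971 to 15158. Of 14 cumulus and granulosa markers, 11 were under 1 FPKM in every sample, and the sums of the 14 were 24.2 to 34.0 in IVM and 30.8 to 36.2 in IVO. The IVO mean was lower for 6 of the 14 and higher for 7. Every IVO sample lay above every IVM sample for 4, Has2, Ptx3, Tnfaip6 and Fst, at no more than 1.73 FPKM, and below for 0. The sums of 7 blood and immune markers were 1.73 to 3.28 in IVM and 2.92 to 23.2 in IVO, the highest being IVO replicate 3 with 15.7 FPKM of Lyz2, and all 7 had a higher mean in IVO. The part of these cells in the differences was not tested. The groups were compared with limma, fitted to log2(FPKM + 1) of the 18818 genes averaging at least 1 FPKM, and a gene was called at |log2FC| ≥ 1 with a Benjamini-Hochberg adjusted p-value under 0.05. A log2FC is IVO minus IVM on that scale, which understates the difference of genes with low FPKM. The tested genes were 13154 Ensembl genes, among them all 7 members and the genes of the lists below, and 5664 assembled loci. With Ensembl genes only, 2056 of the 13154 were called, 1972 lower and 84 higher in IVO, with a median log2FC of -0.185. Of all tested genes, 18.5% were called, 17.9% lower and 0.606% higher in IVO, and the median log2FC was -0.30. That median moved to -0.04 after median-ratio scaling and to 0.17 after quantile normalization, and the share of called genes that were lower in IVO moved from 96.7% to 84.7% and 59.0%. In pooled oocytes, fewer transcripts in every cell and fewer cells that hold them cannot be told apart.

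The annotated 3′ ends of the genes are shown because they carry the signal that the cleavage complex reads before a nuclear polymerase adds a tail downstream of it. Each line gives the gene, its location in GRCm39 with the strand, and 30 bases in transcript direction, 5′ to 3′, with the poly(A) signal AATAAA or its variant ATTAAA in capitals.
Papola, chr12:105805169-105805198, plus strand: cattgaaaacacAATAAAaaaaaaaacagc
Papolg, chr11:23812646-23812675, minus strand: tcttttcaaagagaaactttaaaaccttta
Tent2, chr13:93281806-93281835, minus strand: tgcgatgattaaAATAAAggtttggagatc
Pabpn1, chr14:55136347-55136376, plus strand: taatgtgtcatgAATAAAgttgttttatga
Pabpc1, chr15:36595908-36595937, minus strand: aattcttgctttAATAAAaattccttaaac
Pabpc1l, chr2:163892425-163892454, plus strand: tttgctttatatATTAAAaaatgctgcaaa
Pabpc4, chr4:123192679-123192708, plus strand: ctgcatatattaAATAAAtttactttccct
The last 100 bases of the canonical transcript were searched on the transcript strand, and 6 of the 7 genes held at least 1 of the 2 signals, the one in capitals starting 19 to 28 bases before the end. Pabpc1l was the member with ATTAAA alone. Papolg held neither, and its canonical transcript ends short of the annotated end of the gene, so the 30 bases shown for it are simply its last ones. Over 21740 protein-coding genes, 60.1% held AATAAA and 73.7% held either signal in the same window. The cytoplasmic polyadenylation element TTTTAT or TTTTAAT, the letters to which CPEB proteins are known to bind, lay in the windows of Pabpc4 (82 bases before the end) and Pabpn1 (16 bases before the end) and in 15.9% of all windows. These matches describe letters in a window and not sites in use.

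Among the polymerases, Papola was the most abundant and its level differed most between the groups, with IVO at 0.567 times the IVM mean. Papola, the canonical nuclear poly(A) polymerase, spans chr12:105750908-105805208 on the plus strand with 22 exons in its canonical transcript. Its level was 239, 172 and 206 FPKM in IVM replicates 1 to 3 and 102, 105 and 144 FPKM in IVO replicates 1 to 3. Every IVM sample lay above every IVO sample, although IVO replicate 3 came close to IVM replicate 2. The means were 206 ± 33.1 and 117 ± 23.4 FPKM (SD, n = 3 each). The log2FC was -0.82 (SE 0.21, 95% interval -1.32 to -0.32), with an adjusted p-value of 0.0322 by limma with Benjamini-Hochberg adjustment, which passed the p threshold and not the fold threshold. The adjusted p-value from limma rose to 0.077 to 0.102 when IVM replicate 1, IVM replicate 3, IVO replicate 1 or IVO replicate 2 was left out. It was 0.147 with median-ratio scaling (log2FC -0.50) and 0.274 with quantile normalization (log2FC -0.31). Of 18 alternatives, 6 gave a limma adjusted p-value under 0.05.

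Papolg, a second nuclear polymerase of the canonical type, was expressed far below Papola. It lies on the minus strand at chr11:23810143-23845284. Its level was 10.6, 16.2 and 16.3 FPKM in the IVM pools and 15.1, 15.4 and 10.5 FPKM in the IVO pools. The groups overlapped throughout, each having 1 sample clearly under the other two. The log2FC was -0.06 (SE 0.26, 95% interval -0.67 to 0.54; limma adjusted p = 0.883).

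Tent2, the cytoplasmic polymerase also known as GLD2, which lengthens tails outside the nucleus, was among the well expressed genes of the set. It lies on the minus strand at chr13:93281805-93329035. Its level was 92.6, 80.6 and 89.3 FPKM in the IVM pools and 83.3, 66.1 and 85.2 FPKM in the IVO pools. The groups overlapped, and IVO replicate 2 was the lowest sample. The log2FC was -0.17 (SE 0.18, 95% interval -0.59 to 0.26; limma adjusted p = 0.555). The pseudogene Tent2-ps1 was listed at 2.38 to 10 FPKM, and reads that fit both could have been divided between them by the authors' counting.

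**Figure D1:**
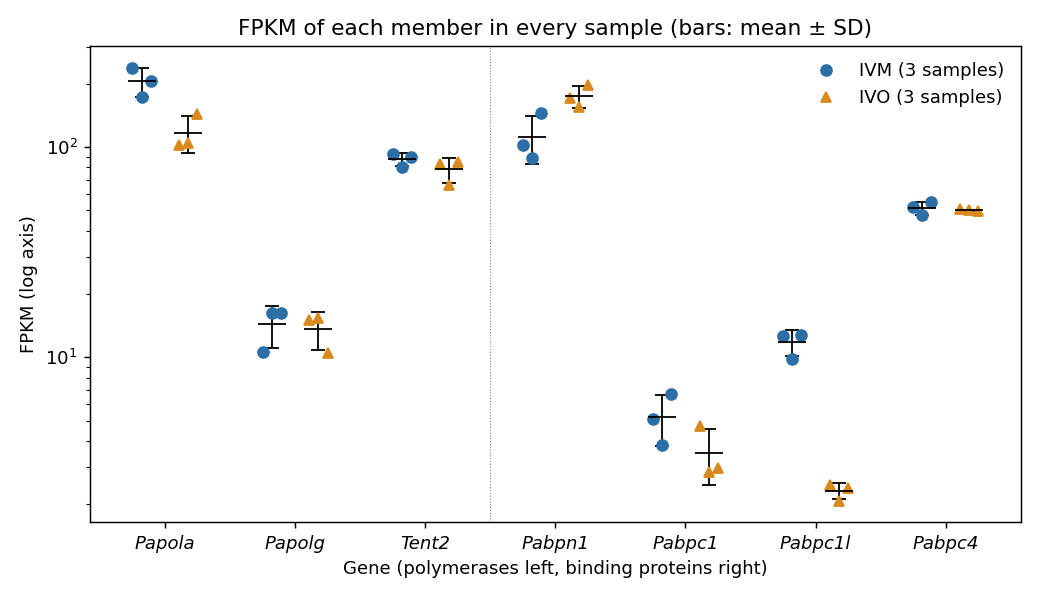
FPKM on a log axis of the 3 polymerases (left of the dotted line) and the 4 binding proteins (right), with 1 point per sample (circles IVM, triangles IVO) and bars for the mean ± SD of 3 samples. Pabpc1l sits at 9.84 to 12.8 FPKM in IVM and 2.08 to 2.48 in IVO, Papola is also separated with IVM above IVO, Pabpn1 is separated with IVO above IVM, and the other 4 genes overlap.

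Pabpn1, the nuclear PABP that binds the growing tail and keeps the polymerase at work, was the member with the higher level in IVO. It lies on the plus strand at chr14:55129957-55136384. Its level was 103, 88.4 and 144 FPKM in the IVM pools and 171, 156 and 197 FPKM in the IVO pools. All IVO samples lay above all IVM samples, with IVM replicate 3 standing nearest to IVO. The means were 112 ± 29.2 and 174 ± 20.7 FPKM (SD, n = 3 each), a ratio of 1.56. The log2FC of 0.66 (SE 0.23, 95% interval 0.13 to 1.19) did not pass the test (limma adjusted p = 0.0751). With quantile normalization the log2FC was 1.15 and limma called the gene (adjusted p = 0.0181), and with median-ratio scaling the adjusted p-value was 0.0251 at a log2FC of 0.98. Leaving out IVM replicate 3 gave 0.86 with a limma adjusted p-value of 0.0309. Leaving out any other single sample gave limma adjusted p-values of 0.12 to 0.188, with a log2FC of 0.51 to 0.74. Of 18 alternatives, 6 gave Pabpn1 a limma adjusted p-value under 0.05. The protein-coding gene Gm20521 shares 651 exon bases with Pabpn1 on the same strand and was listed at 3.97 to 11.8 FPKM, so part of the reads could have been assigned to either. Since the kit does not mark strand, exon bases shared with antisense lncRNA genes could matter too. These were 538 in Pabpc1 (Gm62541), 194 in Pabpc4 (Gm57113), 104 in Papolg (Gm12061) and 89 in Tent2 (Gm61547). Gm12061 was listed at 0 to 0.37 FPKM. Gm62541, Gm57113 and Gm61547 were not among the listed genes, so reads from them in shared bases could have been counted to the member.

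Pabpc1l, the PABP of oocytes and early embryos also called ePAB, was the called member of the set, lower in IVO. It lies on the plus strand at chr2:163867370-163892458 and has 14 exons in its canonical transcript of 2354 bases. Its level was 12.7, 9.84 and 12.8 FPKM in the IVM pools and 2.48, 2.08 and 2.39 FPKM in the IVO pools. The groups were far apart compared with their spread, the lowest IVM sample standing well over the highest IVO sample. The means were 11.8 ± 1.67 and 2.32 ± 0.21 FPKM (SD, n = 3 each), so IVO stood at 0.197 times IVM. The log2FC was -1.94 (SE 0.21, 95% interval -2.43 to -1.45), with an adjusted p-value of 0.00188 by limma with Benjamini-Hochberg adjustment. Among all tested genes this log2FC stood at the 6.4th percentile from the lowest. The IVO values rest on an estimated 78 to 94 fragments per sample and the IVM values on 409 to 524, so counting error was 11.3% at the lowest value. Pabpc1l was called in each of the 18 alternatives tried, in which the log2FC ran from -2.29 to -1.47 and the limma adjusted p-value from 0.00108 to 0.0338.

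Pabpc1, the general cytoplasmic PABP of somatic cells, had the lowest IVM mean of the 7. It lies on the minus strand at chr15:36595902-36609912. Its level was 5.10, 3.83 and 6.67 FPKM in the IVM pools and 4.71, 2.86 and 2.96 FPKM in the IVO pools. IVO replicate 1 lay within the IVM range, while the other two IVO samples lay under it. The log2FC was -0.46 (SE 0.28, 95% interval -1.10 to 0.19; limma adjusted p = 0.276), and the values rest on an estimated 131 to 332 fragments. How the counting divided reads between Pabpc1 and its processed pseudogenes is not given in the sources used here.

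Pabpc4, the inducible PABP first described in activated T cells, was the most abundant of the 3 cytoplasmic PABP genes. It lies on the plus strand at chr4:123156144-123192720. Its level was 52.1, 47.3 and 54.5 FPKM in the IVM pools and 50.5, 49.9 and 49.6 FPKM in the IVO pools. The IVO samples were nearly level with each other and lay inside the IVM range. The log2FC was -0.03 (SE 0.17, 95% interval -0.42 to 0.35; limma adjusted p = 0.907), the narrowest interval of the set.

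**Figure D2:**
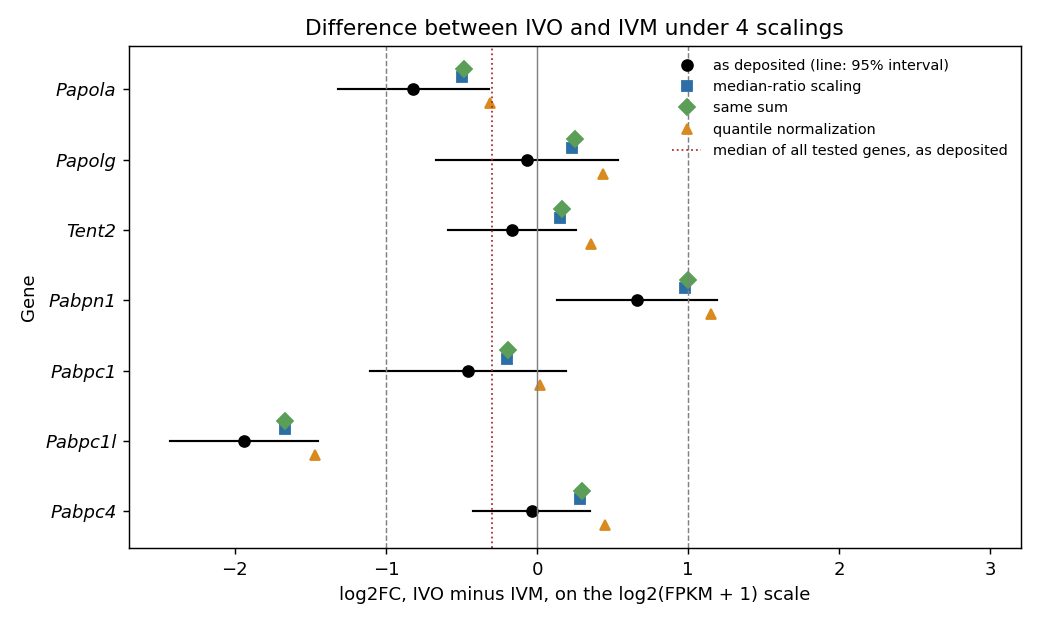
log2FC (IVO minus IVM, log2(FPKM + 1) scale) of the 7 genes as deposited, with 95% intervals, and under 3 other scalings, with dashed lines at -1 and 1 and a dotted line at the median of all tested genes (-0.30). Pabpc1l is left of -1 under all 4 scalings, Pabpn1 is right of 0 under all 4, and Pabpc4, Papolg and Tent2 move from just under 0 to above it when the libraries are rescaled.

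Of the 7 genes, 1 was called, lower in IVO, beside 18.5% of all tested genes called (17.9% lower and 0.606% higher). Adjusted p-values from limma were under 0.05 for 2 of the 7, Pabpc1l and Papola, both lower, beside 23.4% of tested genes (21.5% lower and 1.87% higher). The groups did not overlap for 3 of the 7, Pabpc1l and Papola with IVM above and Pabpn1 with IVO above, beside 42.2% of tested genes. With 7 genes, nothing particular to the set is read from these counts. The median log2FC of the 7 was -0.17 on the deposited scale, 0.15 after median-ratio scaling and 0.36 after quantile normalization. The medians of all tested genes were -0.30, -0.04 and 0.17, and that of the tested Ensembl genes was -0.185 on the deposited scale. Pabpc1l and Papola were lower and Pabpn1 higher in IVO under each of these scalings, whereas Pabpc4, Papolg and Tent2 turned from slightly lower to slightly higher with both rescalings, and Pabpc1 with quantile normalization alone. In order of mean level over the 6 samples, the genes ran from Papola and Pabpn1, at the 90.3rd and 89.4th percentile of tested genes, through Tent2 (84.5), Pabpc4 (78.5) and Papolg (58.5) to Pabpc1l (45.2) and Pabpc1 (34.8). Papola was above Pabpn1 in each IVM sample and under it in each IVO sample, and the order of Papolg and Pabpc1l was not the same in all IVM samples.

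A ratio of 2 genes within a library does not move when that library is multiplied by 1 factor, as in median-ratio and same-sum scaling, but can move with quantile normalization. The ratio of Pabpc1l to Pabpc1 was 2.48, 2.57 and 1.92 in the IVM pools and 0.527, 0.727 and 0.807 in the IVO pools. Pabpc1l stood above Pabpc1 in every IVM sample and below it in every IVO sample. The log2 ratio averaged 1.21 ± 0.23 in IVM and -0.56 ± 0.32 in IVO (SD, n = 3 each), a difference of -1.77 with a two-sided exact permutation p-value of 0.1, the smallest that 3 against 3 samples allow. Pabpc1l made up 18.1%, 16.1% and 17.3% of the summed FPKM of the 3 cytoplasmic PABP genes in the IVM pools and 4.3%, 3.8% and 4.3% in the IVO pools. Pabpc4 made up 73.7% to 77.6% in IVM and 87.5% to 91.0% in IVO, with no overlap. Its share rises when that of Pabpc1l falls, and the FPKM of Pabpc4 itself overlapped (log2FC -0.03). The sum itself was 69.8, 60.9 and 74.0 FPKM in IVM and 57.6, 54.9 and 55.0 FPKM in IVO, so that the groups were separated by a small margin.

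Papola held 69.8%, 64.0% and 66.1% of the summed FPKM of the 3 polymerases in the IVM pools and 50.8%, 56.2% and 60% in the IVO pools. Tent2 held 27.1% to 29.9% in IVM and 35.5% to 41.6% in IVO, and neither share overlapped between the groups. Shares of the same sum move against each other, and the FPKM of Tent2 itself overlapped (log2FC -0.17). The ratio of Papola to Papolg was 22.5, 10.6 and 12.7 in IVM and 6.75, 6.81 and 13.7 in IVO, with IVO replicate 3 above 2 of the IVM samples. These shares and ratios are descriptions and were not tested.

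**Figure D3:**
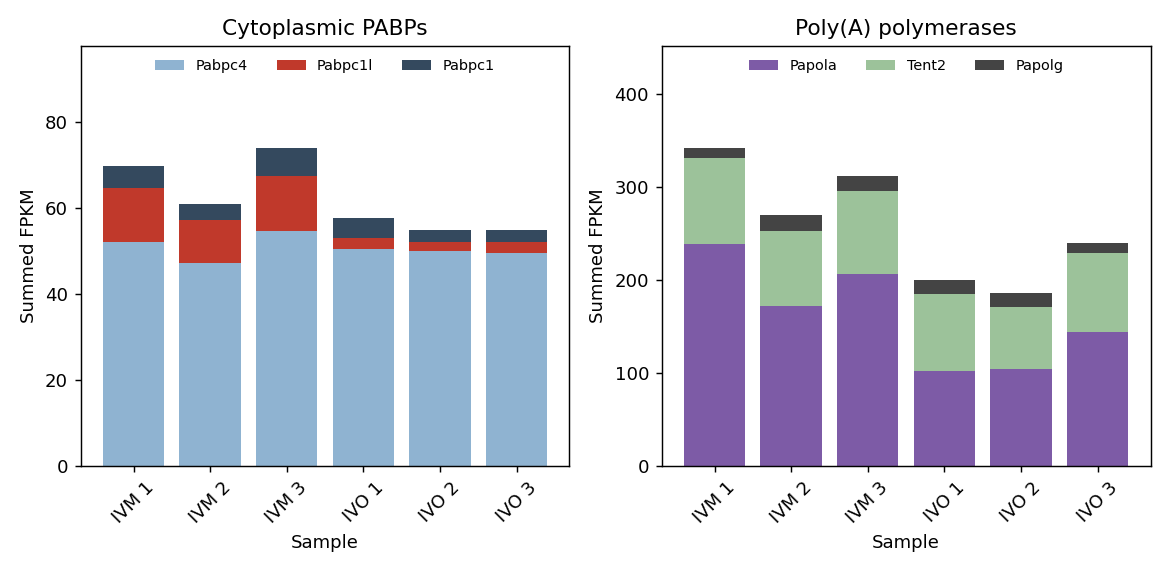
Stacked bars of the FPKM of the cytoplasmic PABP genes (left) and of the polymerases (right) in each of the 6 samples, both axes starting at 0. The Pabpc1l segment shrinks from 16.1% to 18.1% of the bar in IVM to 3.8% to 4.3% in IVO, and the Papola segment from 64.0% to 69.8% to 50.8% to 60%.

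The 78 other genes of the poly(A) pathway, in 6 lists by role, included 64 that were tested, all Ensembl genes. Of the 64, 9 were called, 8 lower and 1 higher, beside 17.9% and 0.606% of all tested genes. The same shares stand beside the counts of each list below. With Ensembl genes only, 1972 of 13154 were called lower and 84 higher, and the lists again held 9 calls. Adjusted p-values from limma were under 0.05 for 10 lower and 6 higher of the 64, beside 21.5% and 1.87% of all tested genes, and the groups did not overlap for 28, beside 42.2%. The median log2FC of the 64, all Ensembl genes, was -0.04, beside -0.30 for all tested genes and -0.185 for the tested Ensembl genes. The 9 calls dropped to 5 without IVM replicate 1, without IVM replicate 3 or without IVO replicate 1.

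None of the 5 tested genes of the other poly(A)-binding proteins was called by limma, while 2, Pabpn1l and Larp4, had unadjusted p-values under 0.05. The most abundant was Pabpn1l, the cytoplasmic relative of Pabpn1 known from oocytes, at 483, 254 and 392.3 FPKM in IVM and 210.0, 223 and 271 FPKM in IVO (log2FC -0.64, SE 0.26, limma adjusted p = 0.119). Its ratio to Pabpn1 was 4.71, 2.88 and 2.71 in IVM and 1.23, 1.43 and 1.38 in IVO, so Pabpn1l was the more abundant of the pair in all samples and the ratios did not overlap. Larp4, which binds poly(A) and PABP, passed the adjusted p threshold and not the fold threshold, at 47.1, 43.4 and 54.9 FPKM in IVM and 77.5, 75.9 and 69.4 FPKM in IVO (log2FC 0.61, SE 0.18, adjusted p = 0.045).

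Of 11 genes whose proteins interact with PABP or with the cap complex, 2 were called, both lower in IVO. Paip2, a repressor that pulls PABP off poly(A), had the largest difference of all genes in the lists, at 254, 132 and 158 FPKM in IVM and 20.9, 22.0 and 17.8 FPKM in IVO (log2FC -3.05, SE 0.27, limma adjusted p = 0.00121). It was called in each of 18 alternatives. Its paralog Paip2b was at 64.0, 61.8 and 78.1 FPKM in IVM and 30.5, 41.9 and 28.2 FPKM in IVO (log2FC -1.01, SE 0.22, limma adjusted p = 0.017). Paip2b was not called without IVM replicate 3, IVO replicate 1 or IVO replicate 3, nor with any of 3 rescalings. Nor was it called with the trend with gene length removed, and 5 of the 12 alternatives that kept all samples called it. By limma, 2 further genes, named after their values were seen, had adjusted p-values under 0.05 below the fold threshold: the translation initiation scaffold Eif4g3 (log2FC -0.89, adjusted p = 0.015) and the PABP-binding translation activator Paip1 (0.55, adjusted p = 0.0312).

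Among 9 tested genes of other nucleotidyltransferases, 4 were called, 3 lower and 1 higher, beside 17.9% and 0.606% of all tested genes. The uridylyltransferase Tut4 was at 223, 229.9 and 129 FPKM in IVM and 42.4, 56.1 and 97.7 FPKM in IVO (log2FC -1.59, SE 0.36, limma adjusted p = 0.0201), with IVM replicate 3 and IVO replicate 3 nearest to each other. The non-canonical polymerases Tent5b (log2FC -1.69, SE 0.37, adjusted p = 0.018) and Tent5c (log2FC -1.07, SE 0.20, adjusted p = 0.0107) were also lower in IVO by limma. Tut4 was not called without IVM replicate 1 or 2 or IVO replicate 1 or 2, Tent5b without IVM replicate 1 or 3, and Tent5c without IVM replicate 3. Tent5c was also not called with median-ratio, quantile or same-sum scaling, Tut4 with median-ratio scaling or quantile normalization, and Tent5b with same-sum scaling. With the trend with gene length removed, neither Tut4 nor Tent5c was called. Of the 12 alternatives that kept all samples, 7 called Tut4, 10 Tent5b and 6 Tent5c. Mtpap, the poly(A) polymerase of mitochondria, was the called gene that was higher, at 53.7, 52.0 and 52.5 FPKM in IVM and 116, 123 and 90.4 FPKM in IVO (log2FC 1.03, SE 0.18, limma adjusted p = 0.00909). It was not called when IVO replicate 1 or IVO replicate 2 was left out.

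Of 15 tested nuclear cleavage and polyadenylation factors, 1 was called, Cpsf4l, a relative of the zinc finger subunit of the cleavage complex, at 36.0, 17.0 and 29.4 FPKM in IVM and 7.43, 6.97 and 6.63 FPKM in IVO (log2FC -1.77, SE 0.29, limma adjusted p = 0.00683). Of 8 tested cytoplasmic polyadenylation factors, 1 was called, Cpeb1, which binds the cytoplasmic polyadenylation element, at 80.2, 50.9 and 77.1 FPKM in IVM and 29.4, 34.0 and 30.3 FPKM in IVO (log2FC -1.10, SE 0.23, limma adjusted p = 0.0146). Both genes had IVM above IVO in every sample. Cpsf4l was called in all 18 alternatives, whereas Cpeb1 was not called without IVM replicate 1 or with any of 3 rescalings. Cpeb1 was also not called with the trend with gene length removed, and 6 of the 12 alternatives that kept all samples called it.

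Of 16 tested deadenylases and their partners, 1 was called, Parn, a poly(A)-specific ribonuclease, at 273, 474 and 331 FPKM in IVM and 69.1, 151 and 211 FPKM in IVO (log2FC -1.42, SE 0.42, limma adjusted p = 0.0475). Its samples varied widely within each group, and it was called in 4 of 18 alternatives, the call being lost when any sample but IVO replicate 3 was left out. The median log2FC of the 16 was 0.21, with 5 genes lower and 11 higher in IVO. It was 0.52 after median-ratio scaling and 0.66 after quantile normalization, beside -0.30, -0.04 and 0.17 for all tested genes on the 3 scales. Adjusted p-values from limma were under 0.05 for 2 of the 16, both lower in IVO, beside 21.5% lower and 1.87% higher of all tested genes.

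**Figure D4:**
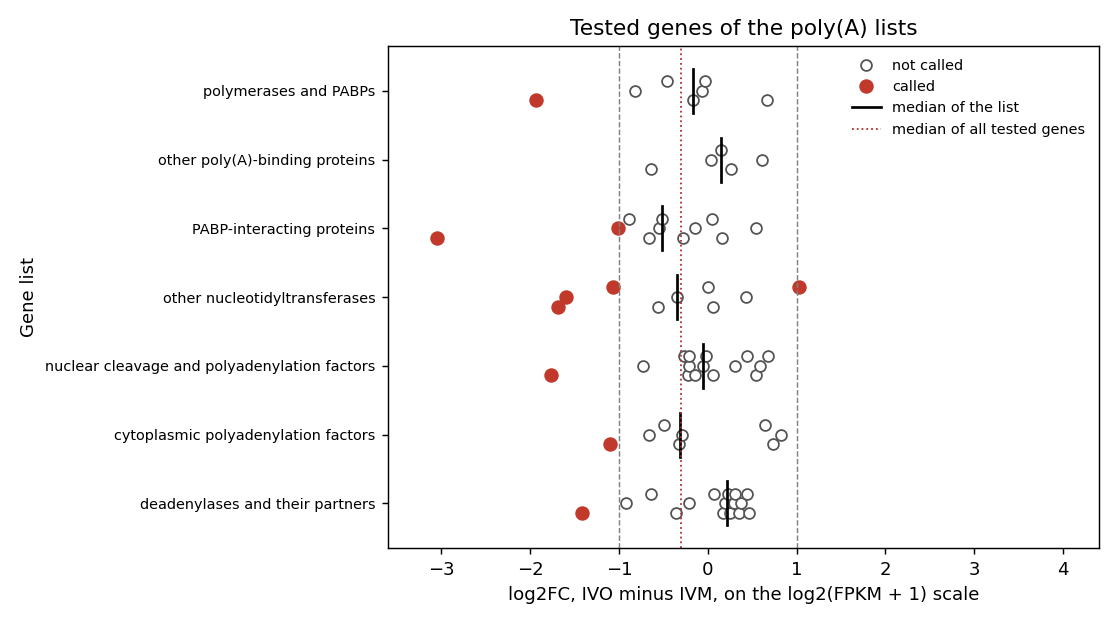
log2FC (IVO minus IVM) of every tested gene of the 7 polymerases and PABPs and of the 6 related lists, filled where called, with black bars for list medians and a dotted line at the median of all tested genes (-0.30). The called genes are 1 of the 7 (Pabpc1l), 8 genes of the other lists to the left of -1 and Mtpap to the right of 1.

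The genes with profiles most like those of Pabpc1l and Papola over the 6 samples were sought by the root mean square difference of centred log2(FPKM + 1). The search covered 10385 of the 13154 tested Ensembl genes, leaving out those without a symbol or with one of Gm and digits or ending in Rik. Nearest to Pabpc1l were the sulfotransferase gene Sult2a7 (difference 0.06), Dusp10, a phosphatase of MAP kinases (0.09), and Ndrg4 (0.10), with log2FC of -1.88, -1.85 and -1.95. A similar log2FC follows from the measure used for the search. Sult2a7 was at 0.42 to 0.64 FPKM and Ndrg4 at 0.65 to 0.97 FPKM in IVO, where that scale understates the difference. Nearest to Papola were Opalin (0.09), Ggnbp1 (0.09) and the lamin B receptor Lbr (0.09), with log2FC of -0.86, -0.83 and -0.79. Lbr was also close to Papola in level, at 247, 174 and 187 FPKM in the IVM pools and 94.5, 102 and 158 FPKM in the IVO pools.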

How the data were processed

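The authors ran SeqPrep and Sickle on paired-end reads of SMART-Seq v4 and Nextera XT libraries, used HISAT2 2.1.0 for alignment to GRCm39 and deposited FPKM of each gene in each sample, estimated by RSEM 1.3.3. They tested counts with DESeq2 1.24.0. The kit primes cDNA on poly(A), so FPKM reflects tailed RNA, and it does not mark strand. Tail length was not measured here. The deposited group means were not used.

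The FPKM values entered as deposited. limma 3.58.1 in R 4.3.3 (lmFit, eBayes with trend, group alone) was run on log2(FPKM + 1) for genes averaging at least 1 FPKM, with two-sided p-values adjusted by Benjamini-Hochberg over all 18818 tested genes. Fragment numbers were inferred from FPKM steps, with 85.7% to 86.7% of the values used lying within 0.25 of a whole fragment. They cover counting error only, and a count test was not run. Samples were grouped by their titles. The study describes the replicates as biological. Sequences are from GENCODE transcripts on GRCm39. Tables used Python 3.11.15 and pandas 2.3.3.

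The members and lists were chosen with earlier results of these data known. All 7 members are named. From each related list the called genes are named, up to 3 in each direction, or the 2 with the highest mean FPKM. The 3 nearest profiles were sought for the member with the largest log2FC and for the one with the highest mean. Other settings were a pseudocount of 0.1, a filter at 5 FPKM or none, median-ratio, quantile and same-sum scaling, Ensembl genes only, eBayes without trend, the replicate block, subtracting the lowess trend of a sample's deviations on gene length, and leaving out each sample.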

Additional observations from a re-analysis of the deposited data

How the results depend on the processing

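The call of Pabpc1l and the directions of Pabpc1l, Papola and Pabpn1 held in all 18 alternatives. The number of the 7 members called was 2 with quantile normalization, where Pabpn1 joined at a log2FC of 1.15. The 3480 calls over all 18818 tested genes became 2068 with the length trend removed and 929 with that and the replicate block. With Ensembl genes only, a smaller tested set, 2056 of 13154 were called, and 1610 of the 13154 with median-ratio scaling as well. The 9 calls in the related lists became 5 with the length trend removed and 3 with that and the replicate block, and ranged from 5 to 10 when 1 sample was left out. The log2 ratio of Pabpc1l to Pabpc1 differed by -1.49 with quantile normalization and by -1.48 with the length trend removed. These 2 values were taken on the log2(FPKM + 1) scale, unlike the -1.77 from FPKM without a pseudocount. On that scale the main fit gave log2FC of -1.94 for Pabpc1l and -0.46 for Pabpc1. The distance from -1.77 is therefore not a measure of what the processing changed.

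The log2FC of Pabpc1 turned to 0.017 with quantile normalization. Under median-ratio, quantile and same-sum scaling, Ensembl genes with median-ratio scaling, and removal of the length trend without or with the replicate block, the log2FC was 0.28, 0.45, 0.30, 0.18, 0.17 and 0.17 for Pabpc4, 0.23, 0.44, 0.25, 0.14, 0.13 and 0.13 for Papolg, and 0.15, 0.36, 0.17, 0.049, 0.036 and 0.036 for Tent2. Leaving out 1 sample gave -0.09 to 0.011 for Pabpc4 and -0.26 to 0.10 for Papolg. The cause of these shifts was not tested.

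Correlations of deviations from the group means were -0.06, -0.02 and -0.11 for same-numbered samples. The sample titles do not say whether the numbers pair the samples, and with 3 samples per group these correlations cannot decide it. With the replicate block, limma called 2991 genes and gave adjusted p-values of 0.0123 for Pabpc1l and 0.0687 for Papola. Depth limits Pabpc1l and Pabpc1 most, with 78 and 131 estimated fragments at their lowest, and 3 samples per group limit all tests.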

Other observations

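Among the tested genes with an annotated 3′ end window, those holding the cytoplasmic polyadenylation element TTTTAT or TTTTAAT (1934 genes) had a median log2FC of -0.02, with 9.5% called lower and 0.8% called higher in IVO. The 8410 genes without it had a median of -0.20, with 15.4% called lower and 0.6% higher. Among the members, Pabpn1 and Pabpc4 belong to the first set, with log2FC of 0.66 and -0.03, and the other 5 to the second, with -1.94 for Pabpc1l, -0.82 for Papola, -0.46 for Pabpc1, -0.17 for Tent2 and -0.06 for Papolg. Tent2 and Papolg were close to Pabpc4. In Pabpn1 the TTTTAT lay downstream of AATAAA, which starts 26 bases before the end. The poly(A) signal also split the genes in the same direction. The 8137 genes with AATAAA or ATTAAA had a median log2FC of -0.14, with 13.5% called lower and 0.5% higher. The 2207 genes with neither had a median of -0.27, with 16.9% called lower and 1% higher. The letters were read from 1 annotated transcript per gene, and the ends used in these oocytes were not measured. The differences between the sets were not tested.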
